A study of Mus musculus with 24 samples.

Results

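The miR-297, miR-466, miR-467 and miR-669 families were examined in tumors, metastases and cultures of JygMC(A) cells. The members were all probes of the nCounter mouse miRNA assay whose name starts with one of these 4 family names, whatever the letter or arm that follows. There were 33 such probes among 566 for mouse miRNAs, and 4 of the 33 carry joined names because a single probe reads several nearly identical miRNAs. The assay counts fluorescent barcodes of probes hybridised to RNA, with no amplification.

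The 24 samples fall into 7 groups. JygMC(A)-GFP/Luc is a mouse mammary tumor cell line tagged with GFP and luciferase, and it was injected into the mammary fat pad of young adult female BalbC nude mice, which lack T cells. Laser-captured carcinoma areas (n = 5) and EMT-like areas (n = 7) of the primary tumors (PT) and lung metastases (n = 4) were set beside laser-captured normal mammary gland (NMG, n = 2) and normal lung parenchyma (n = 2) of BalbC nude mice and beside the tagged cells grown in vitro as a monolayer (n = 2) or as third-generation 3D-spheres (n = 2). Replicate 1 of each of the 3 tumor groups is labelled with 3 animals and was counted as 1 sample. The 16 tumor samples came from 8 animals or pools, so carcinoma, EMT-like and metastasis samples partly share animals, and each pair of NMG and normal lung samples carries the same number.

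A miRNA is a short RNA that lowers the output of messenger RNAs, which it recognises mainly through its seed, bases 2 to 8 from its 5′ end. In the mouse, most genes of these 4 families form a large tandem array inside Sfmbt2, a Polycomb group gene that is imprinted, expressed from the paternal allele and best known for its role in the placenta. In the RefSeq gene table (GRCm38.p6), 71 of 81 genes named Mir297, Mir466, Mir467 or Mir669 lay within the bounds of Sfmbt2 on chromosome 2, with a median gap of 210 bases between neighbours. All genes of 25 of the 33 members lay there. All genes of miR-466i, miR-466j, miR-466k, miR-467f and miR-467g lay elsewhere, and 3 further members had genes in both places.

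RefSeq held the mature sequence of 6 members, shown here because they include miR-467f and miR-466j, both called in comparisons that follow. These 6 are built largely of alternating U and G or of A and C. The seed is in capitals, and the sequences run 5′ to 3′.
miR-467f, chr11:69635419-69635439, minus strand: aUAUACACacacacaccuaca
miR-467g, chr5:34732872-34732892, minus strand: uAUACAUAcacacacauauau
miR-466i (the 3p arm, since the probe name gives no arm), chr13:17747552-17747573, plus strand: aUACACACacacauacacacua
miR-466j, chr10:60960802-60960824, plus strand: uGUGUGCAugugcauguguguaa
miR-466k, chr3:85467396-85467418, plus strand: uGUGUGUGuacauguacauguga
miR-467h (read with miR-669d and miR-669l), chr9:115381898-115381919, plus strand: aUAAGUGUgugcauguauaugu
The panel also has probes for miR-1187 and miR-574-5p, which are no members but hold 4 or more UG in a row.
miR-1187, chr5:82798964-82798986, minus strand: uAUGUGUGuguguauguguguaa
miR-574-5p, chr5:64970328-64970350, plus strand: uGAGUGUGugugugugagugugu

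No seed was shared among the 6 members. They differed in pairs by 5 to 16 edits (substitutions, insertions and deletions), so none of the 15 pairs came within the 3 edits set for near-identity. miR-467f lay 5 edits from miR-467g and 5 from miR-466i, all 3 of them AC-rich, and miR-466j lay 4 edits from miR-1187. Sequences of the members within Sfmbt2 were not compared here.

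Most members were at or near the background. Each deposited value is a count less the lane's average over its 6 negative control probes, and 40% of the 792 member values were below 0. A member was taken as detected in a lane (1 sample) when it exceeded a limit of 2 SD over the average negative control, which ran from 4 to 21.4 counts across lanes. By this measure 195 values (24.6%) were detected. miR-466g was above the limit in 24 of 24 lanes, 5 members were above it in 13 to 23 lanes, 9 in 4 to 12 lanes, 11 in 1 to 3 lanes and 7 in none. The 5 were miR-669f (22 lanes), miR-467f (20), the joint probe for miR-466a-3p and miR-466b-3-3p (17), miR-297c (16) and miR-467a (13). The summed member values were 0.0642% to 0.930% of the mouse miRNA sum of a lane. Single values differ by counting error at this level, and the number of samples limits the precision further.

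**Figure D1:**
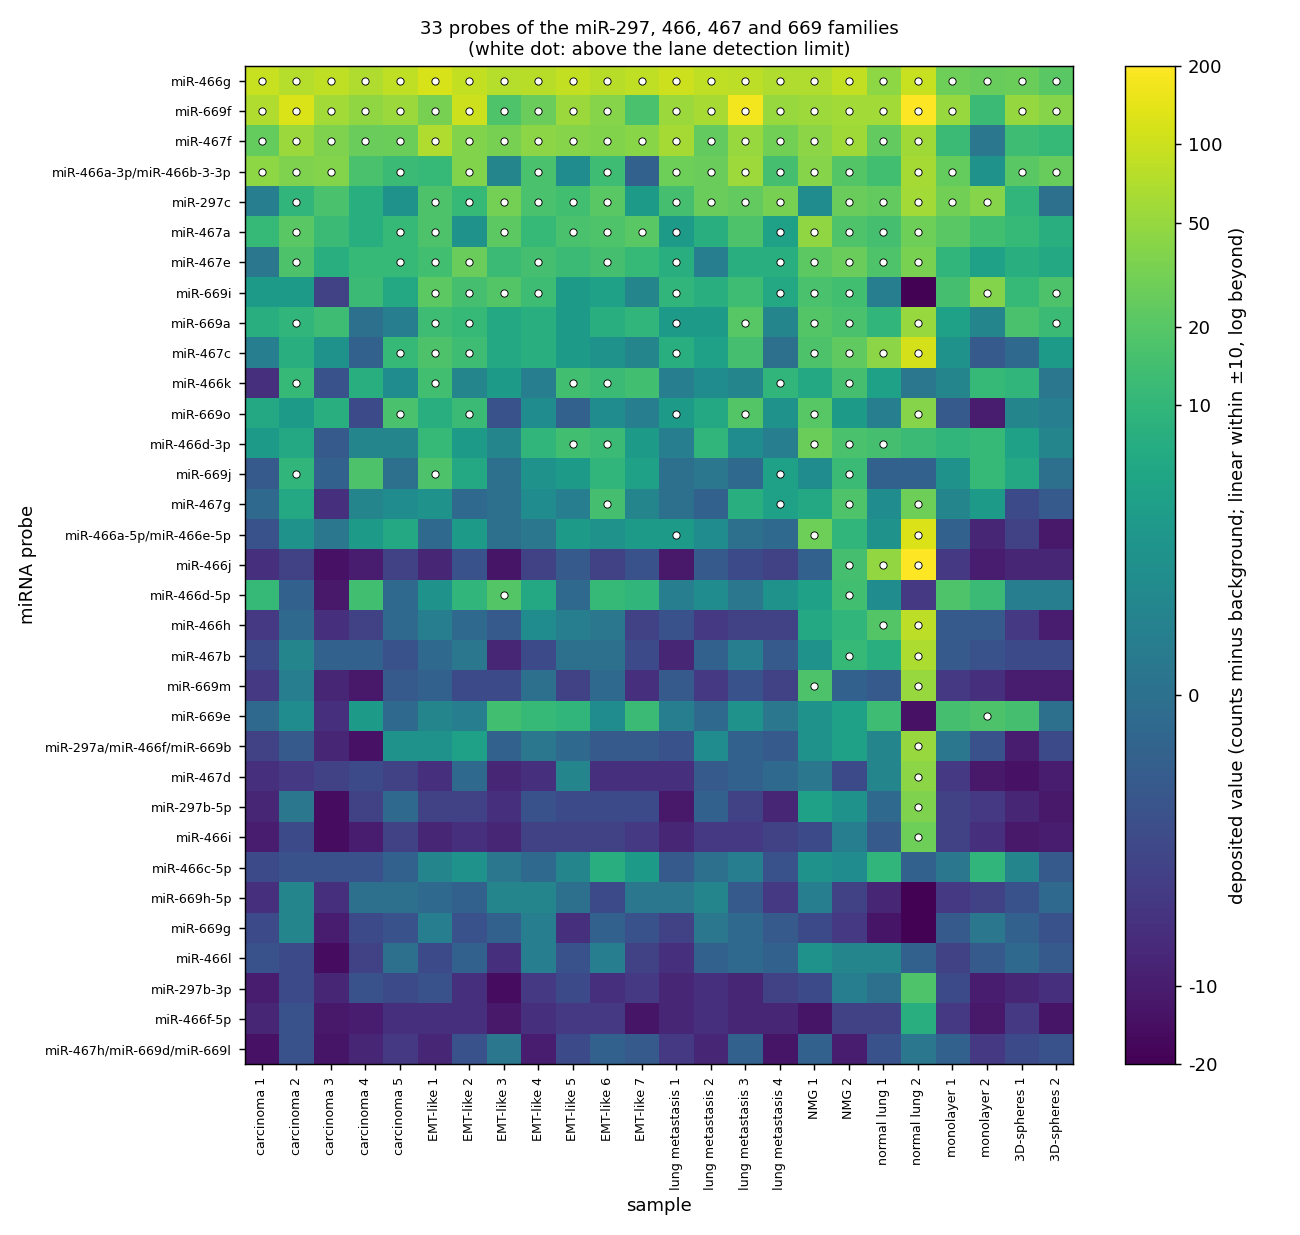
Deposited values (counts minus the lane background, colour, linear within 10 of 0 and log beyond) of the 33 members (rows, ordered by the number of lanes above the limit) in 24 samples (columns), with a white dot where a value exceeded the detection limit of its lane. miR-466g carries a dot in all 24 lanes, and the second normal lung sample is the lane with the most dots, 20.

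The closely related sequences did not read alike. miR-467f exceeded the limit in 20 lanes, miR-467g in 4 and miR-466i in 1. miR-466j exceeded it in both normal lung samples, in which miR-1187 was under the limit with values of 5 and 9. miR-574-5p exceeded it in 7 of 7 EMT-like samples (values of 16 to 39) and in none of 5 carcinoma samples (-4 to 13), and carcinoma and EMT-like areas differed in it by -2.24 on the log2 scale (SE 0.63, limma adjusted p = 0.0877). After scaling, miR-574-5p was called higher in EMT-like areas than in NMG (2.99, limma adjusted p = 0.0125). It was also called higher in metastasis than in normal lung (2.78, limma adjusted p = 0.0169). There its deposited values overlapped, at 4 to 17 in metastasis (2 of 4 above the limit) and 1 and 7 in normal lung. All NMG and normal lung samples were under the limit for miR-574-5p, so neither difference is a measured fold. No lower bound and no result under another scaling is given for them.

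Probes for miRNAs that mice do not make give a second measure of background. The panel has 33 probes for miRNAs of 2 mouse herpesviruses and 3 for miRNAs of plants and a worm, 36 in all. In the 16 tumor lanes 3 to 12 members and 0 to 7 of these 36 foreign probes exceeded the limit. In NMG 13 and 17 members did so beside 16 and 13 foreign probes, and in normal lung 10 and 20 members beside 3 and 17. The 4 culture lanes had 3 to 5 members and 0 to 4 foreign probes above it. When the limit was instead set from the 36 foreign probes of each lane, the median number of members above it was 4 of 33 in EMT-like areas, 5 in NMG and 6.5 in normal lung, in place of 7, 15 and 15. Carcinoma did not share this drop: its samples had 4, 6, 9, 4 and 8 members above it, in place of 4, 10, 4, 3 and 8. miR-466g was still above this limit in 24 lanes, miR-669f in 21, miR-467f in 19, the miR-466a-3p and miR-466b-3-3p probe in 14 and miR-297c in 12.

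**Figure D2:**
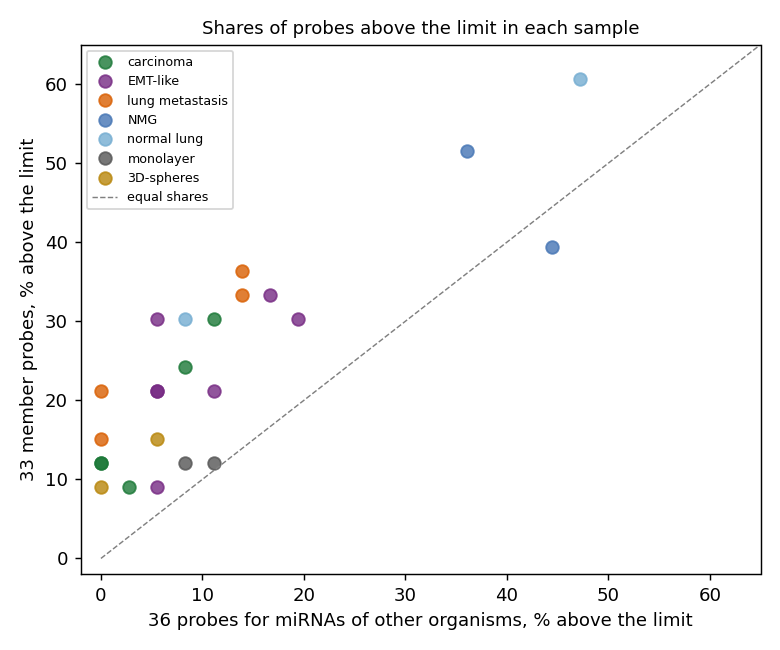
Share of the 33 member probes (vertical axis, percent) against the share of 36 probes for miRNAs of other organisms (horizontal axis, percent) above the detection limit, 1 point per sample, coloured by group (some points coincide). Both NMG samples and the second normal lung sample stand apart at 36.1% to 47.2% of the foreign probes.

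The lanes also differed in total signal, which sets how far scaling moves a value. The mouse miRNA sum ranged from 61497 to 183539 in the tumor lanes and from 24418 to 44953 in the cultures, with 525225 and 559660 for NMG and 589588 and 2334955 for normal lung. The factors by which trimmed mean of M values (TMM) scaling multiplied a lane were 0.754 to 1.91 in tumors, 1.55 to 2.48 in cultures, 0.412 and 0.371 for NMG, and 0.619 and 0.178 for normal lung. Lists of marker miRNAs followed the labels in part. All 5 miRNAs of the epithelial list (miR-200a, miR-200b, miR-200c, miR-141 and miR-429) were above the limit in every metastasis, NMG and normal lung sample, and 0 of 5 in the cultures. In carcinoma 4 of 5 were above it in every sample and in EMT-like areas 1 of 5. In bulk samples, fewer cells of a type and less RNA per cell cannot be told apart.

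The leading members are described by their deposited values first. miR-466g read 94, 75, 85, 70 and 86 in carcinoma, 74 to 116 (median 85) in EMT-like areas and 102, 86, 82 and 71 in metastasis. NMG gave 70 and 88, normal lung 45 and 96, the monolayer 29 and 26 and spheres 28 and 21. The tissues thus overlapped and all 4 cultures were lower. After scaling, carcinoma had a level of 95.8 ± 14.7 (SD, n = 5), EMT-like areas 77.9 ± 17.8 (n = 7), metastasis 127 ± 28.6 (n = 4), NMG 30.8 ± 2.70 (n = 2), normal lung 22.5 ± 7.66 (n = 2), the monolayer 49.0 ± 5.63 (n = 2) and spheres 50.4 ± 2.31 (n = 2). On this scale both normal tissues were lowest and did not overlap with the tumors.

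miR-669f read 71, 120, 58, 47 and 54 in carcinoma, 16 to 101 (median 33) in EMT-like areas and 53, 64, 174 and 51 in metastasis. NMG gave 55 and 60, normal lung 59 and 199, the monolayer 51 and 12 and spheres 50 and 41. EMT-like areas had the lowest median of the deposited values among the tissues, with 1 of 7 samples far above the rest. After scaling NMG was lowest, at 22.5 ± 0.276 (SD, n = 2) beside 38.0 ± 30.2 in EMT-like areas (n = 7) and 81.7 ± 34.98 in carcinoma (n = 5).

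miR-467f, from its gene on chromosome 11, read 25, 54, 36, 27 and 28 in carcinoma, 33 to 71 (median 40) in EMT-like areas and 62, 24, 52 and 31 in metastasis. NMG gave 43 and 57 and normal lung 24 and 57, against 12 and 1 in the monolayer and 13 and 11 in spheres. It exceeded the limit in all 20 tissue lanes and in 0 of 4 culture lanes.

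The joint probe for miR-466a-3p and miR-466b-3-3p read 45, 36, 39, 16 and 12 in carcinoma, -2 to 38 (median 11) in EMT-like areas and 29, 27, 56 and 15 in metastasis. NMG gave 41 and 19, normal lung 14 and 62, the monolayer 25 and 5 and spheres 21 and 26. It was detected in 4 of 5 carcinoma, 3 of 7 EMT-like and 4 of 4 metastasis samples, and the groups overlapped.

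miR-297c read 2, 10, 16, 9 and 5 in carcinoma, 6 to 32 (median 16) in EMT-like areas and 15, 27, 24 and 33 in metastasis. NMG gave 4 and 27, normal lung 24 and 60, the monolayer 31 and 41 and spheres 10 and 0. It was detected in 1 of 5 carcinoma samples, 6 of 7 EMT-like samples, 4 of 4 metastases, both monolayers and neither sphere sample.

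**Figure D3:**
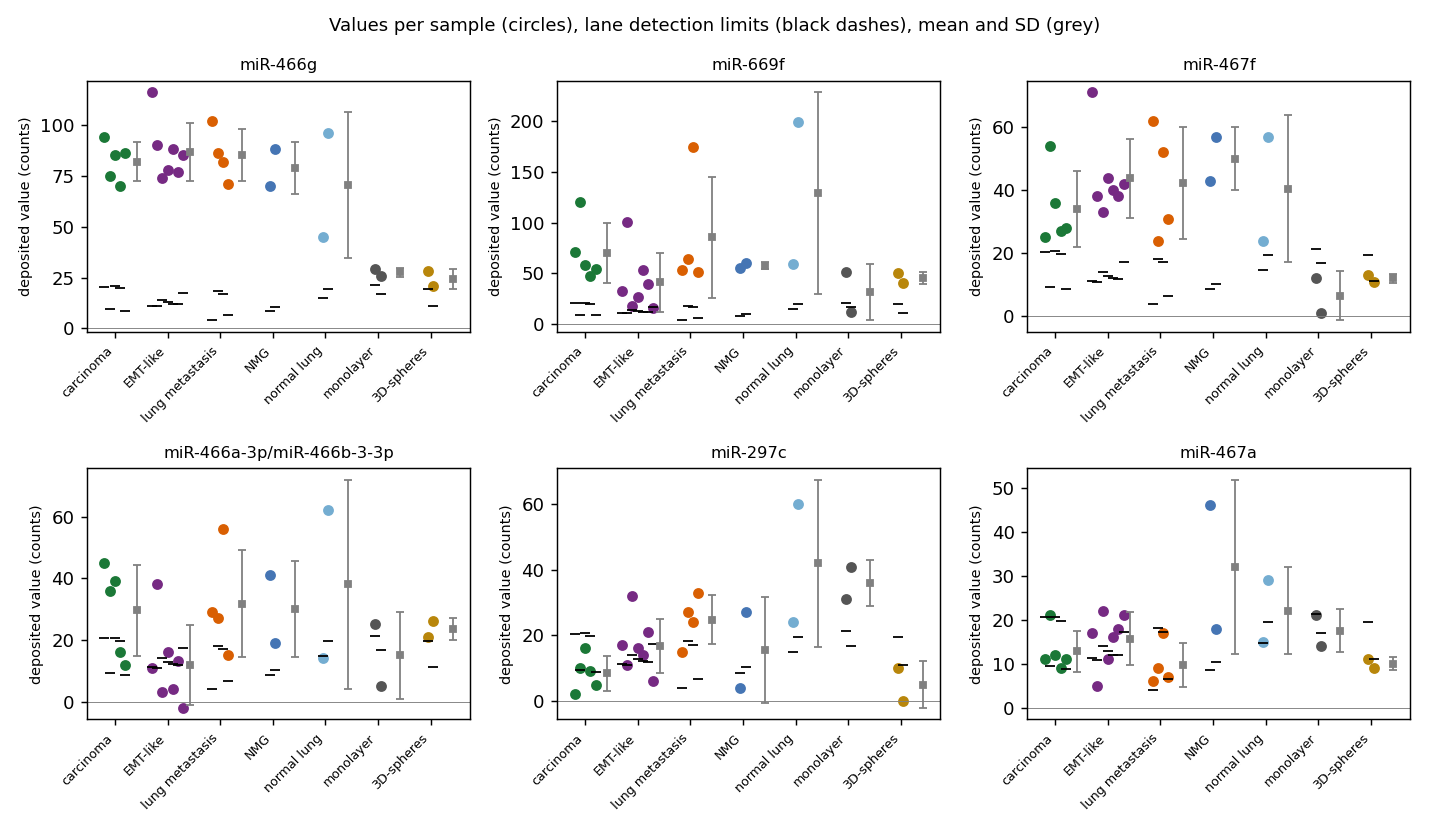
Deposited values (counts minus the lane background) of 6 members per sample (coloured circles) in the 7 groups, with the detection limit of each lane (black dashes) and the group mean ± SD (grey). miR-466g lies at 45 to 116 in all tissues and at 21 to 29 in cultures, and miR-467f lies under the limit in all 4 cultures.

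Other members above the limit in every sample of at least 1 group sat closer to it. miR-467a read 11, 21, 12, 9 and 11 in carcinoma, 5 to 22 (median 17) in EMT-like areas and 6, 9, 17 and 7 in metastasis, with 46 and 18 in NMG and 15 and 29 in normal lung. Monolayers gave 21 and 14, and spheres 11 and 9. NMG replicate 1 was its highest sample. miR-467e read 1, 17, 9, 11 and 11 in carcinoma, 11 to 27 (median 14) in EMT-like areas and 9, 2, 9 and 9 in metastasis, with 22 and 27 in NMG and 18 and 34 in normal lung. Monolayers gave 10 and 7, and spheres 9 and 8. Both were detected in every NMG and normal lung sample and in none of 4 cultures.

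miR-467c read 2, 9, 5, -2 and 11 in carcinoma, 3 to 17 (median 8) in EMT-like areas, 9, 7, 15 and 0 in metastasis, 17 and 23 in NMG and 43 and 113 in normal lung, with -3 to 6 in cultures. Normal lung held its highest values, and all 4 cultures were under the limit. miR-669a read 9, 10, 13, 0 and 2 in carcinoma, 6 to 13 (median 9) in EMT-like areas and 6, 6, 20 and 3 in metastasis, with 19 and 16 in NMG and 10 and 51 in normal lung. Monolayers gave 7 and 3, and spheres 16 and 12. Only 1 culture exceeded the limit. miR-466d-3p read 6, 8, -3, 3 and 3 in carcinoma, 3 to 14 (median 10) in EMT-like areas and 2, 10, 4 and 2 in metastasis, with 28 and 16 in NMG and 15 and 12 in normal lung. Monolayers gave 10 and 11, and spheres 7 and 3. None of these 5 members was called in any comparison that follows.

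The first comparison asks how carcinoma and EMT-like areas of the primary tumors differ. No member was called (limma with trend on log2(value + 1), adjusted p under 0.05 over 583 probes), and 0.172% of all probes were called in either direction. At an unadjusted p under 0.05, 4 members and 81 probes passed. Of the 4, miR-466c-5p and miR-466h had the lower mean in carcinoma, and both were under the limit in all samples of both areas. The median log2 fold change of the members was -0.13, beside -0.16 over all probes tested. The joint miR-466a-3p and miR-466b-3-3p probe differed by 2.06 (SE 0.65, adjusted p = 0.121) and miR-669f by 1.30 (SE 0.43, adjusted p = 0.145), both with the higher mean in carcinoma. In the 4 animals or pools with both areas, each was higher in carcinoma in 4 of 4, by 0.08 to 2.54 for the joint probe and by 0.48 to 1.84 for miR-669f on the log2 scale. Both had passed the unadjusted threshold in the same samples, so this count is a description and no separate support. Within the animals with lettered labels (3 carcinoma and 2 EMT-like samples) the differences were 1.05 and 0.58, and within those with numbered labels (2 and 5 samples) they were 1.94 and 1.43. Without EMT-like replicate 2, in which both were highest of their group, both passed the threshold (2.46, limma adjusted p = 0.0317, and 1.58, limma adjusted p = 0.0316). No other member was called in that fit, for which no share of all probes is given. The epithelial list had summed scaled levels of 737 to 5035 in carcinoma and 38 to 1592 in EMT-like areas, and its part in these differences was not tested.

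These 2 probes varied together. Over the 16 tumor samples their deposited values had a Pearson correlation of 0.83 and a Spearman correlation of 0.81, and 0.78 (Pearson) without the 2 samples farthest from the median or after group means were taken out. It was 0.58 in samples of the lettered and 0.93 in those of the numbered animals. These are descriptions: the 16 samples share 8 animals and the lane's background and depth, and the chosen pair was the most alike of those computed among 5 leading members. The pair of miR-297c and miR-669f had -0.02.

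**Figure D4:**
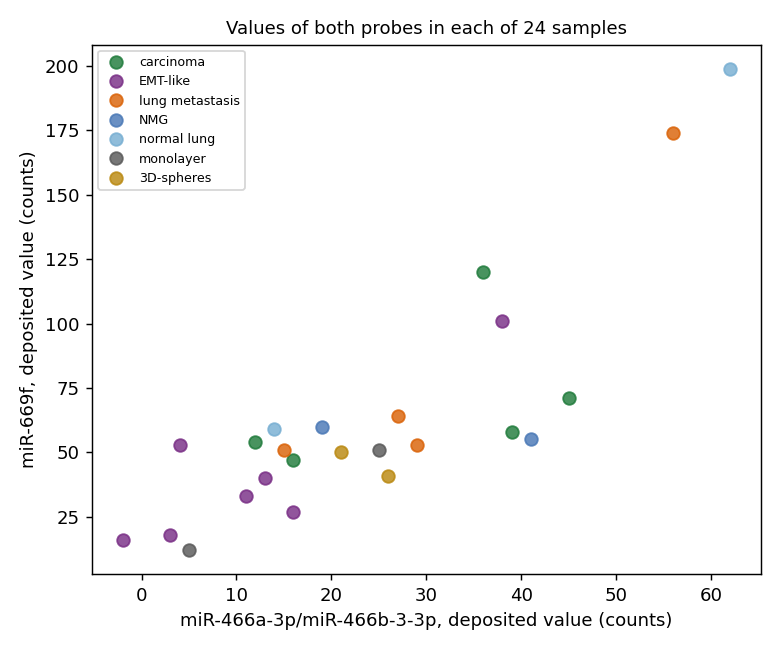
Deposited values (counts minus the lane background) of miR-669f (vertical axis) against the joint probe for miR-466a-3p and miR-466b-3-3p (horizontal axis), 1 point per sample, coloured by group. The EMT-like samples lie at the lower left except replicate 2 at 38 and 101, near carcinoma replicate 2 of the same animal at 36 and 120.

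The second comparison asks how the tumor areas differ from NMG. In carcinoma, 2 members were called higher, where 5.49% of all probes were, and 5 lower, where 23.8% of all probes were. These are 6.06% and 15.2% of the members. miR-466g (1.60, SE 0.29, adjusted p = 0.000214) and miR-669f (1.73, SE 0.62, adjusted p = 0.0374) were higher in carcinoma after scaling, while their deposited values overlapped between the groups. With no scaling the differences were 0.06 for miR-466g and 0.20 for miR-669f, and neither was called. They were 0.74 and 0.88, also not called, with the 4 mRNA control probes as the scale, and -0.09 and 0.05 with the positive controls. With no scaling the split was 0 members called higher and 7 lower, where 0.858% and 49.6% of all probes were. miR-669f also missed the threshold without carcinoma replicate 1 (adjusted p = 0.0582), 2 (0.0781) or 5 (0.0526) or either NMG sample (0.170 and 0.174).

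The 5 called lower in carcinoma were at or under the limit in most NMG values. miR-297b-5p (7 and 5 in NMG), miR-466h (8 and 10) and miR-466l (5 and 3) were under the limit in all samples of both groups, so no fold is given for them. miR-466j read -2 and 15 and miR-467b 5 and 11 in NMG, with only the second value of each above the limit, against -13 to -6 and -5 to 3 in carcinoma. With the mean of the 36 foreign probes as the background, miR-466j was the only 1 of the 5 still called. miR-467b was not called without carcinoma replicate 1, 3, 4 or 5 or either NMG sample (adjusted p = 0.0699 to 0.312).

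In EMT-like areas against NMG, 1 member was called higher (4.46% of all probes were) and 4 lower (20.4% of all probes were). miR-466g was the higher one (1.29, SE 0.28, adjusted p = 0.00124), and it differed by 0.13 with no scaling, when 0 members were called higher and 5 lower (1.72% and 34.5% of all probes were). The 4 lower were miR-297b-5p, miR-466h, miR-466j and miR-467b, all members also called in carcinoma. Both comparisons share the 2 NMG samples. The first 2 of the 4 were under the limit in both groups. Without NMG replicate 2, miR-466j had a difference of 0 in both comparisons because only that sample was above 0. Leaving out NMG replicate 1 lowered the number of members called in the carcinoma comparison, and leaving out either NMG sample lowered it in the EMT-like comparison. Such a fit leaves the other NMG sample alone in its group, and no share of all probes is given for it.

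Blood, vessel, mesenchymal, smooth muscle and foreign-probe signal moved with NMG. All 6 miRNAs of the blood and immune list were above the limit in both NMG samples, with summed scaled levels of 10870 and 13580 against 352 to 1015 in carcinoma and 355 to 743 in EMT-like areas. The endothelial miR-126-3p lay at 9882 and 16150 in NMG against 1015 to 1752 and 1190 to 2457. The mesenchymal list (3 miRNAs) summed to 8645 and 9125 in NMG, 882 to 1885 in carcinoma and 1093 to 2844 in EMT-like areas. The smooth muscle list (2 miRNAs) summed to 6039 and 7591 in NMG against 765 to 1689 and 766 to 1328. Their part in the members' differences was not tested. The median log2 difference between carcinoma and NMG over all probes was -0.68 after TMM scaling, -1.83 with no scaling and -0.31 with the miRNA total. Relative to this median miR-466g was higher in carcinoma by 2.27, 1.88 and 2.35 on these 3 scales, given as a description with no test.

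The third comparison asks how metastases differ from the primary tumors. No member was called, and 3.09% of all probes were called in either direction. At an unadjusted p under 0.05, 4 members and 90 probes passed. The median log2 fold change was 0 over the members and 0 over all probes. The values were 0.57 for miR-466g (SE 0.20, adjusted p = 0.132), 1.26 for miR-669f (SE 0.42, adjusted p = 0.119), 1.60 for miR-297c (SE 0.59, adjusted p = 0.148) and 1.65 for the joint miR-466a-3p and miR-466b-3-3p probe (SE 0.65, adjusted p = 0.167). In the 4 animals or pools with both kinds of sample, the metastasis had the higher scaled value in 4 of 4 for each of these 4 members, by 0.32 to 0.80, 0.47 to 2.78, 0.85 to 3.15 and 0.69 to 4.51. The same held for miR-467f (0.18 to 1.12) and miR-669i (0.13 to 1.96). These 4 members are those that passed the unadjusted threshold in the same samples, so the count is a description and no separate support. Metastasis lanes carried the higher factors (1.28 to 1.91 against 0.754 to 1.36 in PT), and with no scaling miR-466g had 0.01. In the lettered animals, with 1 metastasis, miR-669f differed by -0.05 and in the numbered animals, with 3, by 1.95. Without EMT-like replicate 2, miR-669f was called (1.36, adjusted p = 0.0441). With the series of animals as a term 1 member was called, miR-466g (0.60, limma adjusted p = 0.0401). Of all probes, 1.54% were then called higher and 4.12% lower.

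The fourth comparison asks how metastases differ from normal lung parenchyma. Here 4 members were called higher (7.03% of all probes were) and 9 lower (42.2% of all probes were), or 12.1% and 27.3% of the members. The median log2 fold change was -0.08 over the members and -0.90 over all probes. Normal lung replicate 2 stood apart with the largest sum, the smallest factor and 17 foreign probes above the limit. Without it fewer members were called, in a fit that leaves the other normal lung sample alone in its group. No share of all probes is given for that fit. The split also moved with the scale, to 1 higher and 13 lower with no scaling (1.37% and 64.7% of all probes were) and to 7 higher and 8 lower with the miRNA total (16% and 24.9% of all probes were).

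miR-466j had the smallest adjusted p of the members. It read 48 and 202 in normal lung and -11, -3, -5 and -6 in metastasis, under the limit in all 4. It was also under it in all carcinoma, EMT-like and culture samples. The log2 difference was -5.07 (SE 0.41, adjusted p = 1.04e-09), which given the limits of the metastasis lanes is at least 2.20-fold lower in metastasis. miR-466h, a member within Sfmbt2, read 19 and 82 in normal lung and -7 to -4 in metastasis (-3.82, adjusted p = 1.35e-06), and the limits allow no bound above 1. Both exceeded the limit set from the foreign probes in both normal lung samples (18.62 and 81.52), miR-466h only narrowly. The highest foreign probes of these lanes, at 21 and 88, were above miR-466h and below miR-466j. Both members stayed called without normal lung replicate 2.

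The other 7 called lower rested more on normal lung replicate 2. miR-467b read 9 and 68, miR-467d 3 and 43, miR-466i -3 and 29, miR-297b-5p -1 and 37 and miR-669m -3 and 51, so in each only the second sample exceeded the limit. miR-297b-3p (0 and 18) and miR-466f-5p (-6 and 9) were under the limit in both groups. In the same lane, foreign probes reached 88. Without this sample, miR-297b-5p, miR-297b-3p, miR-466f-5p, miR-466i and miR-669m had a difference of 0, while miR-467b and miR-467d were still called. miR-669m was also not called when any 1 metastasis was left out (adjusted p = 0.0673 to 0.0704).

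miR-466g (2.46, SE 0.30, adjusted p = 7.48e-07), miR-467f (2.15, SE 0.53, adjusted p = 0.00241) and miR-669f (1.58, SE 0.64, adjusted p = 0.0449) were called higher in metastasis after scaling, but their deposited values overlapped. With no scaling the differences were 0.36, 0.09 and -0.54, and with the mRNA controls 0.004, -0.26 and -0.90, none of them called. miR-669f was also not called without metastasis replicate 2 (adjusted p = 0.0743) or 3 (0.128) or without normal lung replicate 1 (0.15) or 2 (0.229). The median over all probes also moved, from -0.90 to -2.33 with no scaling, and relative to it miR-466g was higher in metastasis by 3.36 with TMM and by 2.69 with no scaling, again with no test. miR-669i read 10, 9, 13 and 8 in metastasis, 2 of 4 above the limit, and 2 and -19 in normal lung. It was called higher in metastasis (3.37, SE 0.90, limma adjusted p = 0.00471), at least 2.3-fold given the limits of the normal lung lanes. It was not called without normal lung replicate 2 (2.79, adjusted p = 0.0933). All 6 miRNAs of the blood and immune list and the endothelial miR-126-3p were detected in all samples of normal lung, with sums of 52580 to 61370 against 719 to 1290 and 61610 to 62550 against 771 to 2880 in metastasis. Mesenchymal sums were 4459 to 4617 against 230 to 996, smooth muscle sums 9932 to 13950 against 688 to 1086 and those of the muscle list (3 miRNAs) 582 to 1699 against 15.3 to 30.6. The part of these lists in the members' differences was not tested.

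**Figure D5:**
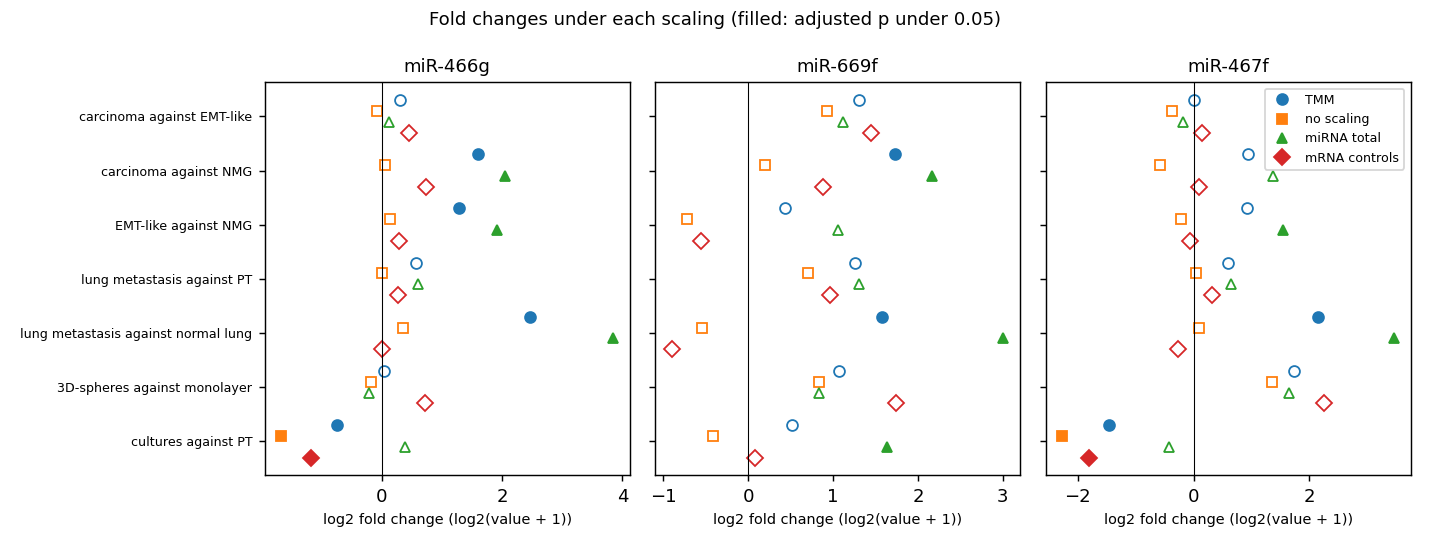
Log2 fold changes (horizontal axis, log2(value + 1) scale) of miR-466g, miR-669f and miR-467f in the 7 comparisons (rows) under TMM scaling, no scaling, the miRNA total and the mRNA control probes, filled where the adjusted p is under 0.05. Against NMG and normal lung the filled points of miR-466g under TMM (1.29 to 2.46) move to 0.06 to 0.36 with no scaling.

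The fifth comparison sets 3D-spheres against the monolayer. No member was called higher, where 2.92% of all probes were, and 1 lower, where 1.72% of all probes were. At an unadjusted p under 0.05, 3 members and 84 probes passed. The member called was miR-297c, at 31 and 41 in the monolayer and 10 and 0 in spheres (-3.91, SE 1.03, adjusted p = 0.028, at least 2.04-fold lower given the limits of the sphere lanes). It was not called without monolayer replicate 1 (adjusted p = 0.05), monolayer replicate 2 (0.109) or sphere replicate 2 (0.649), or with no scaling (0.0828). miR-669f and miR-466g, both detected in spheres, differed by 1.07 (adjusted p = 0.651) and 0.04 (adjusted p = 1).

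The sixth comparison sets both cultures against the primary tumors. In cultures 1 member was called higher (8.4% of all probes were) and 2 lower (22% of all probes were). miR-467f was lower by -1.46 (SE 0.35, adjusted p = 0.00265), at least 1.17-fold given the limits, and its deposited values did not overlap, with 1 to 13 in cultures and 25 to 71 in PT. miR-466g was lower by -0.74 (SE 0.20, adjusted p = 0.00614), with deposited values of 21 to 29 against 70 to 116. miR-669i, at 15 and 39 in the monolayer, 11 and 17 in spheres, -6 to 12 in carcinoma and 3 to 22 in EMT-like areas, was higher by 2.09 (SE 0.60, adjusted p = 0.0104), although deposited and scaled values overlapped. These calls depended on the scale. With the miRNA total, 10 members were called higher and 0 lower, where 25.2% and 14.9% of all probes were, and miR-466g turned to 0.38 (adjusted p = 0.219). With no scaling, 0 were called higher and 2 lower (0.686% and 26.8% of all probes were), at -1.67 for miR-466g and -2.27 for miR-467f. Without monolayer replicate 2, neither miR-467f nor miR-669i was called, in a fit that leaves the other monolayer sample alone in its group. miR-669i also missed the threshold without sphere replicate 2 (0.0722). The endothelial, mesenchymal, and blood and immune lists were lower in cultures, while the scaled sum of the muscle list was higher. miR-126-3p was at 0 in all 4, against 1015 to 2457 in PT, and the summed mesenchymal list was 4.66 to 26.1 against 882 to 2844, with 0 of 3 above the limit. The blood and immune list summed to 99.1 to 138.6 against 352 to 1015, and the epithelial list to 22.3 to 46.9 against 38 to 5035. The muscle list summed to 87.0 to 122.3 in the monolayer and 101.6 to 116.7 in spheres. In both culture groups only 1 of its 3 miRNAs was above the limit in all samples, and 2 were above it in none. For this list, carcinoma gave 10.53 to 28.35 and EMT-like areas 23.1 to 66.5. Smooth muscle sums were 403.6 to 1371 in the monolayer and 426.8 to 493.2 in spheres. They were 764.8 to 1689 in carcinoma and 765.6 to 1328 in EMT-like areas. Their part in the members' differences was not tested.

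Of the 12 members that no rule named, values ranged from -19 to 124 in all lanes and 4 were above the limit in none. The 124 was the joint probe for miR-466a-5p and miR-466e-5p in normal lung replicate 2. None of these 12 was called in any of the 7 comparisons.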

How the data were processed

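miRNA was measured with the nCounter mouse miRNA assay in 24 samples, with RNA of laser-captured tissue and cultured cells purified with the miRNeasy Micro kit. The members and lists were chosen with earlier results of these data known. The deposited values, whole numbers from -20 upward, are a score: counts less their lane's average negative control (6 probes), as found from the control rows, with no scaling between lanes. The submitters' processing notes name Partek without a role, and a further filter is not given in the sources used here. Because values fall below 0, no count model was used.

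Values were floored at 0, scaled by TMM (30% trim on log ratios, 5% on levels, reference carcinoma replicate 2) and tested as log2(value + 1) with limma 3.58.1 in R 4.3.3, with trend, over all 24 samples in 7 groups. PT weighted carcinoma and EMT-like means 5 to 7, and cultures are the mean of both culture groups. Benjamini-Hochberg adjustment covered 583 probes that exceeded 0 somewhere, all 33 members among them. Where all samples of a group were under the limit, a fold is a lower bound that uses the limit of each lane in place of its value, on the scale of value + 1. Members were named when above the limit in all samples of a group (13) or called (15), 21 in all. Marker lists covered epithelium (5 miRNAs), mesenchyme (3), endothelium (1), blood and immune cells (6), muscle (3) and smooth muscle (2). Within 10 pairs of tumor samples from the same animal, deviations from group means correlated with a median of 0.15 (-0.30 to 0.42) over 183 probes, the pairing being given by the animal labels. The labels call the samples biological replicates without saying which cultures were separate. Alternatives were 5 other scalings, a higher background (mean plus 2 SD, floor of 1), a pseudocount of 10, a filter (20 or more in 2 samples or more), no filter, fitting only the groups compared, the replicate block, a term for the animal series, other limits and leaving out each sample. The foreign-probe background and limit were chosen after seeing the data. Python 3.11.15 with pandas 2.3.3 and matplotlib 3.10.9 was used for sequences (RefSeq, GRCm38.p6) and figures.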

Additional observations from a re-analysis of the deposited data

Results flagged for a closer look

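In 30 group and member combinations of 4 to 7 samples, 8 had a highest or lowest scaled value set apart from the rest by Dixon's criterion. Its nominal rate of about 1 of 20 holds for independent, normally distributed values. These combinations share lanes and hold low counts, so no excess over chance can be read from the 8. In carcinoma, replicate 2 stood apart for miR-669f (141.8 against 55.5 to 78.8), miR-467f (63.79 against 27.7 to 38.2) and miR-467a (24.81 against 11.2 to 15.0). In EMT-like areas, replicate 2, from the same animal, stood apart for miR-669f (101.1 against 12.1 to 48.0), the joint miR-466a-3p and miR-466b-3-3p probe (38.04 against 0 to 15.4) and miR-467e (27.03 against 8.29 to 14.4). EMT-like replicate 1, a pool of 3 animals, stood apart for miR-467f (67.86 against 28.8 to 42.3). Lung metastasis replicate 2 stood apart at the low end for miR-467e (3.817 against 11.6 to 13.1), where the deposited value was 2. What sets these samples apart was not tested.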

How the results depend on the processing

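Of 1152 recomputed values of single members, 959 kept their direction and side of the threshold, 103 lost a call, 22 gained one and 68 turned their sign, 48 of them called in neither setting. The number of members called moved by over 1.5 times as follows, and the cause was not tested unless stated. Carcinoma against NMG (7) gave 15 with the higher background, 3 with the filter, which tests only 13 members, and 3 with the foreign-probe background. Of all probes tested, 29.3% and 25.2%, 9.91% and 31%, and 6.35% and 13.9% were then called higher and lower, in this order. EMT-like areas against NMG (5) gave 12, 2 and 2 with the same 3 settings and 3 with only the groups compared. The shares of all probes called higher and lower were 26.8% and 27.6%, 9.91% and 28.8%, 5.49% and 14.1%, and 7.38% and 20.4%. Metastasis against PT (0) gave 12 with the higher background, 1 with a pseudocount of 10 (miR-297c) and 1 with the series of animals as a term (miR-466g). Here 28.3% and 4.46%, 0.858% and 2.74%, and 1.54% and 4.12% of all probes were called higher and lower. Metastasis against normal lung (13) gave 5 with the filter and 8 with only the groups compared, where 12.1% and 40.6%, and 6.17% and 29.5%, of all probes tested were called higher and lower. Spheres against monolayer (1) gave 0 with no scaling, mRNA controls, positive controls, the higher background, only the groups compared and the foreign-probe background. Over all probes these settings called 0% to 2.57% higher and 0% to 0.858% lower. Cultures against PT (3) gave 10 with the miRNA total, 10 with the 100 most abundant miRNAs, 20 with the higher background and 6 with a pseudocount of 10. All probes were called higher and lower in 25.2% and 14.9%, 26.1% and 14.8%, 44.8% and 19.6%, and 13.7% and 20.8%. Leaving out each sample gave 0 to 2 for carcinoma against EMT-like areas, 3 to 6 and 3 to 6 against NMG for carcinoma and EMT-like areas, 0 to 1 for metastasis against PT, 7 to 12 against normal lung, 0 to 1 for spheres and 1 to 4 for cultures. A sample left alone in its group borrows its spread from the others. Shares of all probes are not given for these leave-out counts, so they are not set against the panel. With the replicate block, animal or culture number, the counts were 0, 7, 5, 0, 13, 1 and 3, as without it, and it changed no member's call.

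Among called differences, signs turned with the scale for miR-466g, against NMG in carcinoma with positive controls (-0.09) and in cultures against PT with the miRNA total (0.38) and the 100 most abundant miRNAs (0.44). In metastasis against normal lung they turned for miR-669f with no scaling (-0.54), mRNA controls (-0.90) and positive controls (-0.79) and for miR-467f with mRNA controls (-0.26) and positive controls (-0.16). With the higher background, values under the limit take its floor in every lane and then differ only by the lanes' scaling. In carcinoma against NMG miR-297b-5p, miR-466h, miR-466l and miR-467b all turned to 0.64 and miR-466j to 0.15. In EMT-like areas against NMG miR-297b-5p, miR-466h and miR-467b turned to 0.44, and in metastasis against normal lung miR-297b-3p and miR-466f-5p turned to 0.84 and miR-466i to 0.25. miR-297b-5p turned to 0.06 in carcinoma against NMG with the foreign-probe background.

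Differences called in neither setting also turned. With no scaling they became -0.075 (miR-466g) and -0.37 (miR-467f) in carcinoma against EMT-like areas, -0.56 (miR-297c), -0.089 (the joint miR-466a-3p and miR-466b-3-3p probe) and -0.59 (miR-467f) in carcinoma against NMG, -0.22 (miR-467f) and -0.72 (miR-669f) in EMT-like areas against NMG, -0.65 (miR-297c) and -0.055 (joint probe) in metastasis against normal lung, -0.17 (miR-466g) in spheres, and -0.13 (miR-297c) and -0.41 (miR-669f) in cultures against PT. With positive controls the same 12 became -0.10, -0.40, -0.69, -0.23, -0.73, -0.33, -0.84, -0.90, -0.30, -0.26, -0.031 and -0.29 in this order, and metastasis against PT became -0.061 (miR-466g) and -0.017 (miR-467f). With mRNA controls miR-297c became -0.028 in carcinoma against NMG and -1.01 in metastasis against normal lung, where the joint probe became -0.40, and EMT-like areas against NMG became -0.064 (miR-467f) and -0.56 (miR-669f). miR-467f in carcinoma against EMT-like areas (0.008) became -0.18 with the miRNA total, -0.20 with the 100 most abundant miRNAs, -0.66 with the higher background and -0.13 with the series of animals as a term. miR-466g in spheres (0.044) became -0.21 with the miRNA total and -0.17 with the 100 most abundant miRNAs. The higher background gave -0.55 (miR-297c, carcinoma against NMG) and -0.37 (miR-669f, EMT-like areas against NMG). Leaving out each sample gave -0.27 to 1.79 for miR-297c in carcinoma against NMG and -0.57 to 1.53 in cultures, -0.072 to 0.16 for miR-466g in spheres and -0.18 to 0.15 for miR-467f in carcinoma against EMT-like areas.

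The medians of members detected per lane were 4 for carcinoma, 7 for EMT-like areas, 9 in metastasis, 15 in NMG, 15 in normal lung and 4 in each culture. With the highest negative control as the limit it was 19 in NMG and 4.5 in the monolayer. With mean plus 3 SD it was 4 in EMT-like areas, 5 in metastasis, 12 in NMG, 2 in the monolayer and 2.5 in spheres. With the foreign probes it was 4 in EMT-like areas, 5 in NMG, 6.5 in normal lung and 3.5 in the monolayer. Groups not listed for a limit also moved. With the foreign probes metastases had 8, 5, 8 and 6 members, in place of 12, 5, 7 and 11. Spheres then had 3 and 4, in place of 3 and 5. Mean plus 3 SD gave 6 and 17 in normal lung, in place of 10 and 20. The highest negative control gave 12 and 20 there and 3 and 6 in spheres. In EMT-like areas it gave 13, 8, 8, 10, 8, 15 and 3, in place of 11, 10, 7, 7, 7, 10 and 3. Carcinoma samples had 4, 10, 4, 3 and 8 members detected with the main limit. With the highest negative control they had 4, 16, 5, 6 and 8, and with the foreign probes 4, 6, 9, 4 and 8. Values within the limit of a lane carry no order, and 6 negative controls fix that limit only roughly.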
